A study of Rattus norvegicus with 12 samples.

Results

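Collagen is made in the endoplasmic reticulum (ER), where the chains are hydroxylated, glycosylated and folded into a triple helix, and it is trimmed and cross-linked after secretion. Prolyl 4-hydroxylase, built from a catalytic subunit (P4ha1, P4ha2 or P4ha3) and the protein disulfide isomerase P4hb, makes the hydroxyproline that stabilises the helix. Lysyl hydroxylases (Plod1, Plod2, Plod3) make the hydroxylysine used for cross-links and sugars, Serpinh1 (HSP47) is a chaperone that binds folded procollagen, and Pcolce enhances removal of the C-propeptide outside the cell. In fat this machinery is known mainly from fibroblasts and progenitors, with a part also in adipocytes.

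The genes described here are these collagen folding and processing genes, chosen by name: Serpinh1, P4ha1, P4ha2, P4ha3, P4hb, Plod1, Plod2, Plod3, Pcolce and Pcolce2. Of the 10, the platform annotation used here named 9, each on 1 probe set, among 14506 genes tested. Pcolce2 was not analysed here. No filter on low values was applied, so all 9 entered the tests. In the RefSeq annotation of build GRCr8, Serpinh1 spans chr1:163055630-163063177 and P4ha3 chr1:164040852-164075922. P4ha2 (chr10:38743894-38772741) and P4hb (chr10:106335300-106346911) share a chromosome, as do Pcolce (chr12:24720972-24727287) and Plod3 (chr12:25313070-25323631). P4ha1 spans chr20:27784696-27895785, Plod1 chr5:163623847-163650737 and Plod2 chr8:101964318-102047022.

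The samples were epididymal white fat of male Sprague-Dawley rats, 4 that were fed (Feeding), 4 in phase 2 of fasting (P2) and 4 in phase 3 of fasting (P3), with 1 array per rat. Phase 2 of a long fast is the protein-sparing period in which fat is the main fuel, and in phase 3 the use of body protein rises. The labels used here give no age and no length of the fasts. Values are log2 expression levels, so a difference of 1 is a doubling, and each change is given with its standard error (SE).

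Each array's upper quartile lay between 7.8287 and 8.0239, and no arrays were identical. The labels' extraction protocol names liver, against the other labels. The mean over 9 hepatocyte markers was 4.48 to 5.0 in every rat, but that over 10 adipocyte markers was 10.43 to 12.01. The hepatocyte marker Alb was above its list's mean, with means of 8.33, 9.62 and 6.73 in fed, phase 2 and phase 3 rats. The array median over the tested genes differed from fed by -0.065 in phase 2 and by -0.1551 in phase 3, and centring the arrays removes these shifts. Phase 3 rats 2 and 3 lay at opposite ends of the third principal component of all genes (22.7 and -24.9, with every other rat between -7.2 and 5.8, and 6.6% of the variance), and member calls that end without both are named.

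Promoter sequences are shown for Serpinh1 and Pcolce, the members that changed most, and for the hydroxylase genes P4ha1, P4ha2 and Plod2, whose windows held the core of the hypoxia response element. They are RefSeq windows of rat build GRCr8, written 5′ to 3′ on the gene's strand. Capitals mark ACGTG or its reverse complement CACGT, the core of the hypoxia response element, and GAANNTTC, the core of the heat shock element, which reads the same on both strands. The windows are the 250 bases before the annotated start of P4ha2 (chr10:38743644-38743893, plus strand), Plod2 (chr8:101964068-101964317, plus strand) and Pcolce (chr12:24720722-24720971, plus strand), and the 25 bases around the match for Serpinh1, before the start used (chr1:163062992-163063016, minus strand), and for P4ha1, after it (chr20:27845047-27845071, plus strand).
Serpinh1 site: caactttccaGAAGTTTCttaggac
P4ha1 site: tgactgagcgCACGTagcgagagct
P4ha2: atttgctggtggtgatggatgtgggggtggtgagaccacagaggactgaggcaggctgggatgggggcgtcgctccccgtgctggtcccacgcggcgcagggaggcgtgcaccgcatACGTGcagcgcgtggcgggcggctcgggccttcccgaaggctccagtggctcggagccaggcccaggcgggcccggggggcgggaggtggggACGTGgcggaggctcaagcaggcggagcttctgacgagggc
Plod2: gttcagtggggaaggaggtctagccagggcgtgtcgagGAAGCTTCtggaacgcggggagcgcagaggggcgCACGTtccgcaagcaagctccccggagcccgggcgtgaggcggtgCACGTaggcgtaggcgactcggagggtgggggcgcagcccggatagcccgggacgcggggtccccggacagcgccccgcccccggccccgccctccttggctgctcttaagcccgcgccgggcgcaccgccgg
Pcolce: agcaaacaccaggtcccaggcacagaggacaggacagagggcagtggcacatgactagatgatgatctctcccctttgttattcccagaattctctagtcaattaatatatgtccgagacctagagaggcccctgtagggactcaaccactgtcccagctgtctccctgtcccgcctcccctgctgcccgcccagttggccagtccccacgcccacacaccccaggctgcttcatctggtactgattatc

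In windows of 300 bases, 250 before and 50 after the start, ACGTG lay in 3 of the 9 members (P4ha1, P4ha2 and Plod2) and in 19.3% of all 33469 windows. GAANNTTC lay in 4 (Serpinh1, P4hb, Plod1 and Plod2) and in 8.59% of all windows. The ER stress response element, CCAAT and CCACG with 9 bases between them, lay on neither strand of the 9 and in 0.0657% of all windows. In Serpinh1, whose product is known as a heat shock protein, the match began at position -30 from the annotated start. The matches of P4ha2 began at -133 and -41, and the ACGTG matches of Plod2 at -178 and -133. The starts used for Serpinh1, P4ha1 and P4ha3 lie 201, 60350 and 12 bases inside the spans that RefSeq gives these genes, so other starts are possible and the Serpinh1 match lies within the gene span. A match is a description of the letters and no evidence of binding.

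By phase 3 all 9 genes were lower than in fed rats. In phase 2 against fed, 7 of the 9 fell, where 15.5% of all genes tested did, 9.66% rose and 25.2% changed in either direction (limma, Benjamini-Hochberg adjusted p below 0.05). In phase 3 against fed, 9 of 9 fell, beside 24.3% of all genes lower, 21.1% higher and 45.4% called in all. In phase 3 against phase 2, 8 of 9 fell, beside 15.1% lower, 12.8% higher and 27.9% called. In whole tissue, fewer cells of a type and less RNA per cell cannot be told apart. The median change of the members was -0.57, -0.99 and -0.42 in these comparisons, where the median of all genes was 0.01, 0.05 and 0.03. Without phase 2 rat 1 the last count was 5, since P4ha1, P4ha3 and P4hb no longer passed, and with arrays centred on their medians it was 6, without P4ha1 and P4hb. Both other counts were 7 and 9 with centred arrays too. Over all genes, centring turned 3066 higher and 3523 lower in phase 3 against fed into 6115 and 2670, 1401 and 2248 in phase 2 against fed into 2029 and 1796, and 1853 and 2193 in phase 3 against phase 2 into 3115 and 1683.

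**Figure D1:**
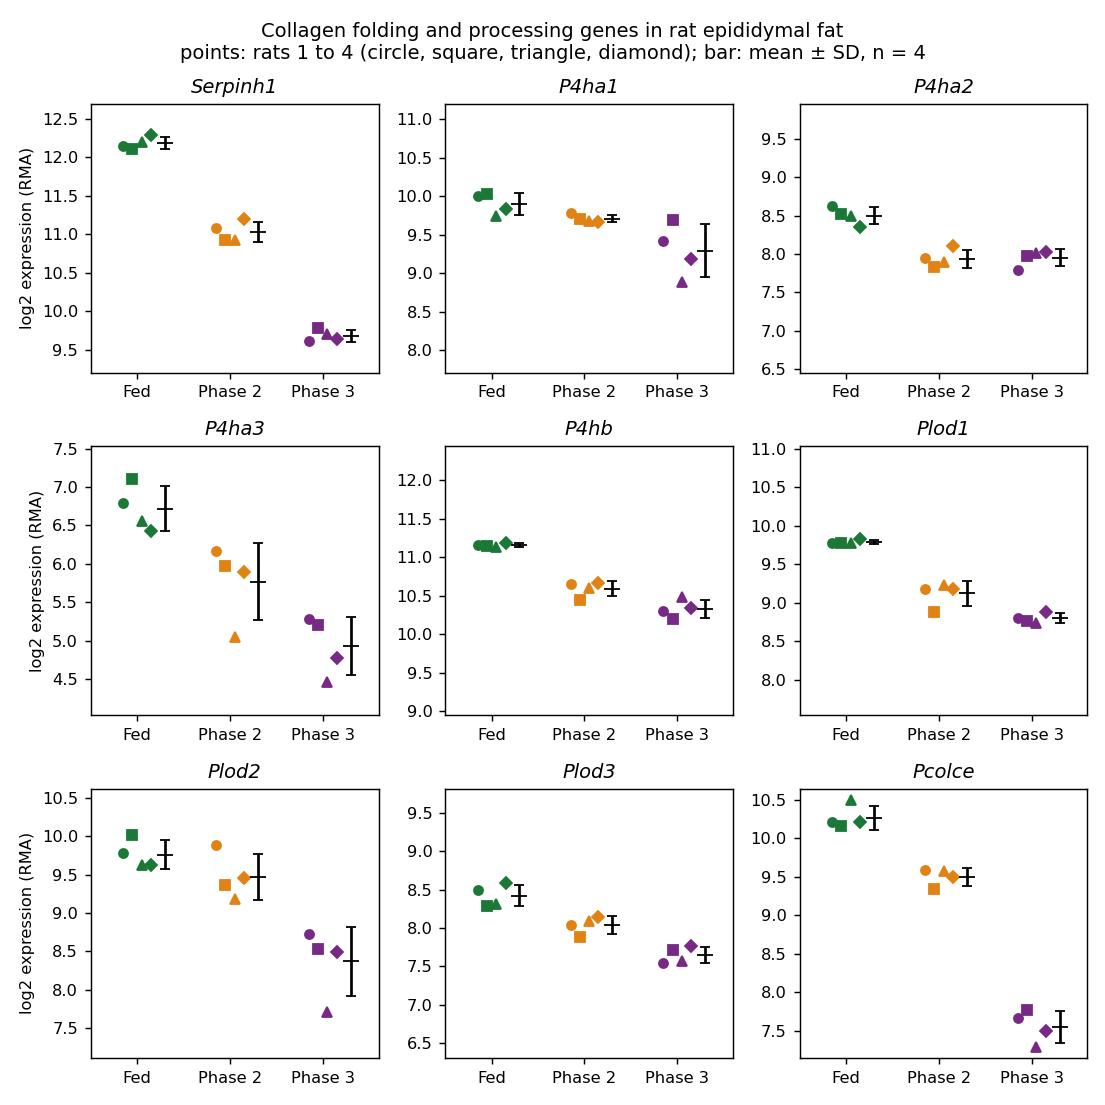
Log2 expression (vertical axes, each spanning the same range) of 9 collagen folding and processing genes in every fed, phase 2 and phase 3 rat, with the mean ± SD of 4 rats. Serpinh1 steps down from 12.19 to 11.03 to 9.68, Pcolce drops mainly between phase 2 and phase 3, and P4ha2 is level from phase 2 (7.94) to phase 3 (7.95).

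The groups' values did not overlap for 7 of the 9 members in phase 2 against fed, beside 31.0% of all genes. In phase 3 against fed this held for 9 of 9 (41.9% of all genes). In phase 3 against phase 2 it held for 4 of 9, Serpinh1, Plod2, Plod3 and Pcolce (26.3% of all genes).

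Serpinh1, the collagen chaperone, was at 12.15, 12.11, 12.20 and 12.29 in the fed rats, at 11.08, 10.92, 10.93 and 11.20 in phase 2 and at 9.61, 9.78, 9.70 and 9.64 in phase 3. No rat of one group reached into another. It fell by 1.16 ± 0.0829 (SE) from fed to phase 2, to 44.9% of the fed level (limma adjusted p = 4.3e-07), and by a further 1.35 ± 0.0829 to phase 3 (adjusted p = 9.76e-08). From fed to phase 3 it fell by 2.5 ± 0.0829, which left 17.6% (adjusted p = 8.68e-11). The steps did not differ by the test, with a difference of -0.19 ± 0.144 (adjusted p = 0.474, 95% interval -0.50 to 0.12). These calls held under all 22 alternatives, with changes from -1.21 to -1.07 in phase 2 and from -2.56 to -2.35 in phase 3 against fed.

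The prolyl 4-hydroxylase subunits are given in turn. The pair tests set out below could hardly give a pass after adjustment with so few rats. That none passed there therefore does not show that the catalytic subunits changed alike. P4ha1, the subunit known as the main form in most tissues, was at 10, 10.03, 9.74 and 9.83 in fed rats, at 9.78, 9.70, 9.68 and 9.67 in phase 2 and at 9.42, 9.69, 8.88 and 9.18 in phase 3. Phase 2 rat 1 lay within the fed range and the other 3 phase 2 rats below it, while every phase 3 rat was below every fed rat, with phase 3 rat 2 nearest to them and rat 3 farthest. The difference in phase 2 was -0.19 ± 0.137 (adjusted p = 0.367, 95% interval -0.49 to 0.10), and in phase 3 P4ha1 fell by 0.61 ± 0.137 relative to fed (limma adjusted p = 0.00223). The fall of 0.42 from phase 2 to phase 3 (adjusted p = 0.0357) lost its call in 9 of 22 alternatives, among them with centred arrays, in a fit of these groups alone and without any 1 phase 2 rat or phase 3 rat 3 or 4, with adjusted p up to 0.0952.

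P4ha2, the subunit known from cartilage, bone and endothelium, was at 8.62, 8.52, 8.49 and 8.35 in fed rats, at 7.95, 7.83, 7.89 and 8.10 in phase 2 and at 7.79, 7.97, 8.01 and 8.03 in phase 3. Both fasted groups lay below all fed rats and overlapped each other. It fell by 0.56 ± 0.0884 in phase 2 (limma adjusted p = 0.0004), and phase 3 differed from phase 2 by 0.01 ± 0.0884 (adjusted p = 0.975, 95% interval -0.18 to 0.19). A contrast added after the data were seen, the change from phase 2 to phase 3 minus that from fed to phase 2, was 0.56 ± 0.153 for P4ha2 (adjusted p = 0.0284). That call ended in 7 of 21 alternatives, with the replicate number as a block (adjusted p = 0.0564) and when phase 2 rat 1, 2 or 3, fed rat 1, phase 3 rat 4 or both phase 3 rats 2 and 3 were left out (up to 0.105).

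P4ha3, a further catalytic subunit, varied more between rats of a group than the other subunits. It was at 6.79, 7.10, 6.56 and 6.43 in fed rats, at 6.17, 5.97, 5.05 and 5.90 in phase 2 and at 5.28, 5.20, 4.46 and 4.78 in phase 3. All fed rats were above all fasted rats, and phase 2 rat 3 reached into the phase 3 range. P4ha3 fell by 0.95 ± 0.236 in phase 2 (limma adjusted p = 0.00854) and by 1.79 ± 0.236 in phase 3 relative to fed (adjusted p = 2.2e-05). Its phase 3 values lay under the 95th percentile, 5.66, of 53 olfactory receptor genes, taken as mostly silent in fat, so its signal there cannot be separated from background and the size of the fall is uncertain. The call of phase 3 against phase 2 (-0.84, adjusted p = 0.0153) ended without phase 2 rat 1 (adjusted p = 0.0536) and without both phase 3 rats 2 and 3 (0.0706).

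P4hb, the disulfide isomerase that is the beta subunit of the enzyme and also folds other proteins, was at 11.16, 11.15, 11.14 and 11.19 in fed rats. It was at 10.65, 10.45, 10.60 and 10.66 in phase 2 and at 10.30, 10.20, 10.48 and 10.34 in phase 3. The fed rats were nearly identical and above all others, and phase 3 rat 3 lay just above phase 2 rat 2. P4hb fell by 0.57 ± 0.0789 in phase 2 (limma adjusted p = 0.000135) and by 0.83 ± 0.0789 in phase 3 against fed (adjusted p = 9.73e-07). The further fall of 0.26 (adjusted p = 0.022) did not pass in 5 of 22 alternatives, with centred arrays (adjusted p = 0.112), in a fit of these groups alone (0.0624) and without phase 2 rat 1 or 4 or phase 3 rat 2 (0.0607 to 0.0636).

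**Figure D2:**
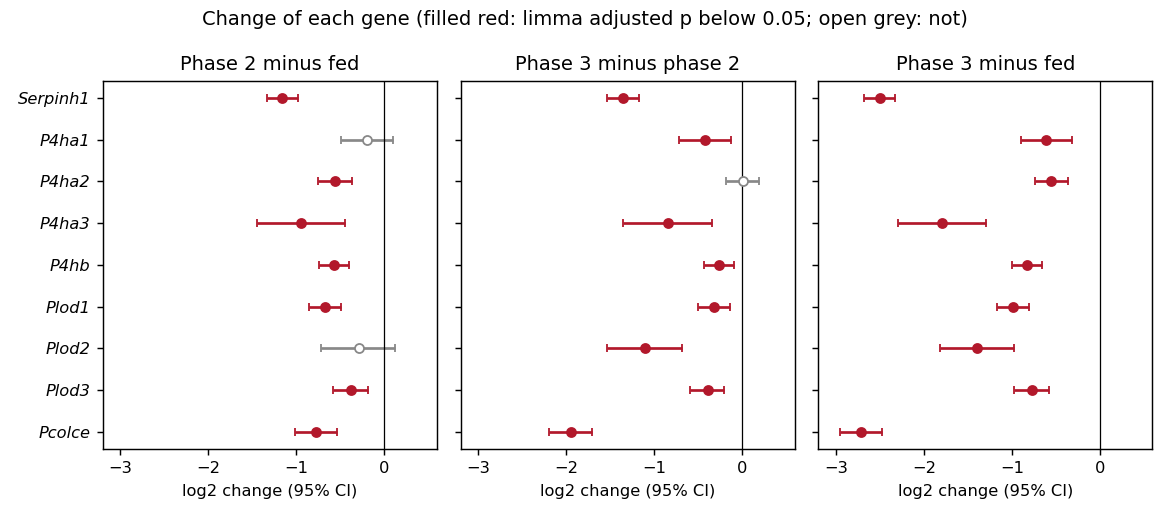
Log2 change of each gene with its 95% confidence interval in phase 2 minus fed, phase 3 minus phase 2 and phase 3 minus fed. Red filled points passed limma's test at an adjusted p below 0.05, which all but P4ha1 and Plod2 did on the left, all but P4ha2 in the middle and all 9 on the right.

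Among the lysyl hydroxylases, Plod1 and Plod3 were called lower from phase 2 on. The phase 2 change of Plod2 was not shown to differ from that of Plod1 or Plod3 (exact permutation test set out below, adjusted p = 0.158 and 0.666). That test could hardly pass after adjustment with so few rats, so it does not show that these genes changed alike. Plod1, known to hydroxylate lysines of the helix, was at 9.77, 9.78, 9.77 and 9.83 in fed rats, at 9.18, 8.88, 9.23 and 9.18 in phase 2 and at 8.80, 8.76, 8.74 and 8.88 in phase 3. Phase 2 rat 2 was the low one of its group, at the level of the highest phase 3 rat. Plod1 fell by 0.67 ± 0.0836 in phase 2 (limma adjusted p = 5.82e-05) and by 0.99 ± 0.0836 in phase 3 against fed (adjusted p = 3.03e-07). The fall of 0.32 between phase 2 and phase 3 (adjusted p = 0.0103) did not pass without both phase 3 rats 2 and 3 (adjusted p = 0.0716).

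Plod3, which also takes part in adding sugars to hydroxylysine, was at 8.49, 8.29, 8.31 and 8.58 in fed rats, at 8.04, 7.88, 8.09 and 8.14 in phase 2 and at 7.54, 7.72, 7.57 and 7.76 in phase 3. The 3 groups did not overlap. It fell by 0.38 ± 0.0919 in phase 2 (limma adjusted p = 0.00748) and by 0.39 ± 0.0919 from there to phase 3 (adjusted p = 0.00517), or by 0.77 in all, to 58.5% of the fed level.

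Plod2, known to hydroxylate the telopeptide lysines of stiff, fibrotic collagen, was at 9.78, 10.02, 9.62 and 9.63 in fed rats, at 9.88, 9.36, 9.18 and 9.46 in phase 2 and at 8.73, 8.53, 7.71 and 8.49 in phase 3. Phase 2 rat 1 lay among the fed rats, whereas all phase 3 rats were below all others and rat 3 was lowest. The phase 2 difference was -0.29 ± 0.197 (adjusted p = 0.332, 95% interval -0.72 to 0.13). From phase 2 to phase 3 Plod2 fell by 1.1 ± 0.197 (limma adjusted p = 0.000792). Relative to fed it fell by 1.4 ± 0.197, to 38.0% (adjusted p = 4.26e-05). Of its change in phase 3, 21.0% was present in phase 2, but the steps were not shown to differ (-0.81 ± 0.342, adjusted p = 0.15).

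Pcolce, the procollagen C-proteinase enhancer, was at 10.22, 10.16, 10.50 and 10.21 in fed rats, at 9.59, 9.34, 9.57 and 9.50 in phase 2 and at 7.66, 7.77, 7.29 and 7.50 in phase 3. The groups were far apart, with the wider gap between phase 2 and phase 3. It fell by 0.77 ± 0.112 in phase 2 (limma adjusted p = 0.000189), fell by 1.95 ± 0.112 from phase 2 to phase 3 (adjusted p = 6.23e-08) and in all fell by 2.72 ± 0.112, to 15.2% of the fed level (adjusted p = 4.47e-10). The later step exceeded the earlier one, with a difference of -1.17 ± 0.193 (adjusted p = 0.00152), which held in all 21 alternatives. Pcolce and P4ha2 were the 2 of 9 members whose steps differed, in opposite directions, beside 12.6% of all genes (5.71% lower and 6.87% higher).

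Of the change from fed to phase 3, P4ha2 had reached 100.9% in phase 2, P4hb 68.4%, Plod1 67.7%, P4ha3 53.0%, Plod3 49.0%, Serpinh1 46.2%, P4ha1 31.5%, Pcolce 28.4% and Plod2 21.0%. The phase 2 and phase 3 comparisons with fed share the fed rats, so these shares are descriptions, and that of P4ha3 rests on a phase 3 signal near background and has no known place in the order.

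Related genes, the catalytic P4ha subunits and the Plod lysyl hydroxylases, were also set against each other within each rat, which cancels the scaling of the array. For 6 pairs in 3 comparisons, 18 tests in all, the change of the log2 difference was tested by an exact two-sided permutation test over rats, whose smallest possible p with 4 against 4 is 0.0286. None passed after Benjamini-Hochberg adjustment over the 18, and 6 had an unadjusted p of 0.0286, for which the adjusted p was 0.0857. With 18 tests and this smallest p a pass was hardly possible, so the lack of one does not show equal changes.

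Among these 6, P4ha3 changed relative to P4ha1 by -0.76 in phase 2 and by -1.18 in phase 3 against fed, and relative to P4ha2 by -1.24 in phase 3 against fed. P4ha2 changed relative to P4ha1 by -0.36 in phase 2 and Plod3 relative to Plod1 by 0.29. From phase 2 to phase 3, Plod2 changed relative to Plod1 by -0.78. In each of these the values of the 4 rats of one group did not overlap those of the other, which the smallest possible p requires and which adds no support. The 3 differences with P4ha3 have no exact size, since all its phase 3 values and phase 2 rat 3 lay under the olfactory receptor percentile of 5.66. P4ha2 relative to P4ha1 was at -1.633, -1.718, -0.877 and -1.147 in phase 3, where 2 rats lay within the phase 2 range (-1.87 to -1.57) and 2 above the fed range (-1.5 to -1.24). It was not shown to differ between phase 3 and phase 2 (0.42, exact permutation p = 0.0857, adjusted p = 0.14).

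**Figure D3:**
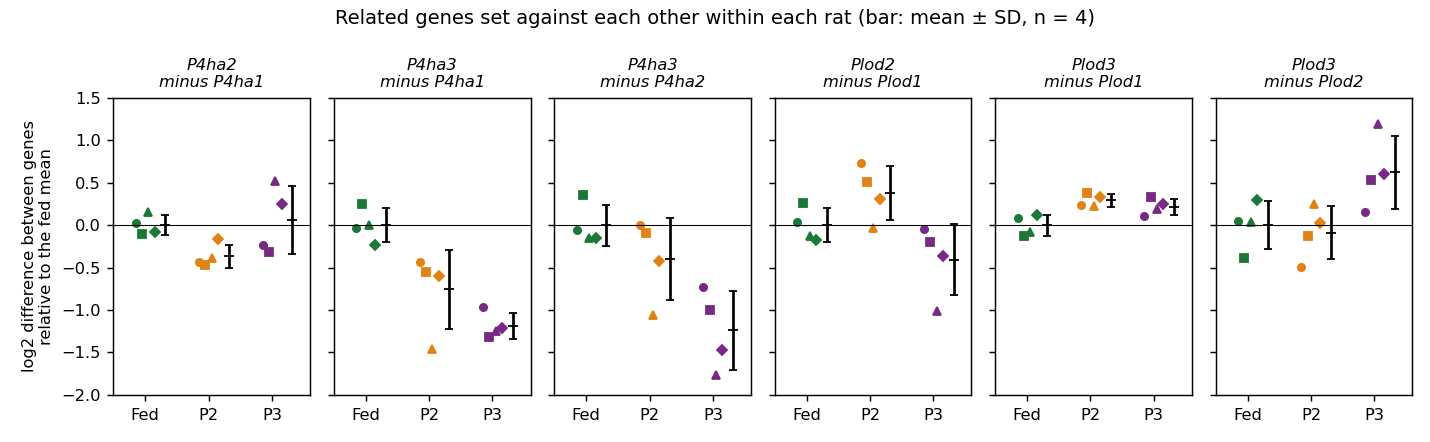
Log2 difference between related genes in each rat, set to 0 at the fed mean, with the mean ± SD of 4 rats per group. P4ha3 lies lower relative to P4ha1 in phase 3, where its own signal is near background, and the 4 phase 3 rats spread widely for the pairs with Plod2.

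The other genes of the pathway were read from lists written with earlier results of these data known. Of 23 further genes of collagen modification, processing and cross-linking, 16 fell and 3 rose in phase 2, 17 fell and 2 rose in phase 3 against fed, and 13 fell and 2 rose between the phases, with medians of -0.45, -0.80 and -0.34. Loxl2, a lysyl oxidase that cross-links collagen, fell by 1.59 ± 0.135 in phase 2 and fell by 3.50 ± 0.135 in phase 3 against fed (limma adjusted p = 2.78e-10). Creb3l1, an ER-bound transcription factor of collagen genes, changed by -1.38 in phase 2 and by -1.97 in phase 3 against fed. The lysyl oxidase Loxl4 fell by 1.17 in phase 2, and its means were 7.69 ± 0.187, 6.51 ± 0.0953 and 7.28 ± 0.477 in fed, phase 2 and phase 3 rats (SD, n = 4). Loxl1 fell by 1.27 from phase 2 to phase 3.

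Tmem38b, an ER cation channel whose loss is known to impair collagen modification, was among the genes of the list of 23 that rose. It was at 6.31 ± 0.13 in fed rats, 6.86 ± 0.325 in phase 2 and 9.01 ± 0.334 in phase 3 (SD, n = 4). It rose by 2.69 ± 0.17 in phase 3 against fed (limma adjusted p = 1.89e-08). Its rise of 0.55 in phase 2 (adjusted p = 0.0299) lost its call when phase 2 rat 3 or 4 or fed rat 2, 3 or 4 was left out (0.0638 to 0.0939). The highest phase 2 change in that list was 0.95, in a gene not named here.

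The prolyl 3-hydroxylation complex and partners of the members, all from the list of 23, are named after their values were seen. All those named here fell, whereas 3 genes of that list rose in phase 2 and 2 in phase 3 against fed. P3h1, its enzyme, fell in phase 2 (-0.73) and in phase 3 against fed (-1.07). So did Crtap, the cartilage-associated protein of the complex (-0.43 and -1.21), and Ppib, its cyclophilin (-0.40 and -0.80). The ER peptidyl-prolyl isomerase Fkbp10, known to act with lysyl hydroxylase, fell likewise (-0.70 and -1.30), as did P3h4, a scaffold of lysyl hydroxylase complexes (-0.66 and -1.26), whose phase 3 mean of 5.43 was under the percentile of 5.66, so that the size of its fall there is uncertain. Bmp1, the C-proteinase that Pcolce enhances, changed by -0.67 in phase 2 and by -1.38 ± 0.089 in phase 3 against fed (limma adjusted p = 2.26e-08). Sparc, a collagen-binding matrix protein, changed by -0.38 and -1.26.

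Of 24 collagen chains, 7 fell and 2 rose in phase 2, with a median near 0, and 11 fell and 1 rose in phase 3 against fed, with a median of -0.19. Between the phases 10 fell, with a median of -0.21. Col5a3, a chain of type V collagen, changed by -1.71 ± 0.12 in phase 2 and by -3.00 ± 0.12 in phase 3 against fed. Col1a1 was at 12.69 ± 0.115, 12.15 ± 0.229 and 10.08 ± 0.528 in fed, phase 2 and phase 3 rats, and Col3a1, the type III chain, at 12.87 ± 0.0552, 12.18 ± 0.211 and 9.94 ± 0.418 (SD, n = 4).

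Col1a1 differed by -0.54 in phase 2 (limma adjusted p = 0.0685) and fell by 2.07 from phase 2 to phase 3. Col1a2 differed by -0.43 in phase 2 (adjusted p = 0.0933) and fell by 1.6 from there. Both phase 2 differences passed in a fit of these groups alone (0.00384 and 0.0434), without phase 3 rat 3 (0.00337 and 0.0379) and without phase 3 rats 2 and 3 (0.00427 and 0.0403). Col1a1 also passed with cyclic loess (0.0497) and Col1a2 without phase 2 rat 1 (0.0461). Col3a1 passed in both steps, at -0.70 and -2.23. Col5a1 fell by 1.05 in phase 2. Col11a1 rose by 0.77, a call lost when phase 2 rat 1 or 3 or fed rat 1, 3 or 4 was left out (0.0668 to 0.0862).

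Of 17 general ER folding genes, 12 fell and 1 rose in phase 2, with a median of -0.60, and 14 fell and 2 rose in phase 3 against fed, with a median of -0.57. From phase 2 to phase 3, 4 fell and 1 rose, with a median of 0.01. In that step 8 of the 9 members fell, beside 15.1% of all genes lower. The member count was 5 to 8 when 1 rat was left out and 6 to 8 under the other alternatives. The called genes of largest change were Pdia6, a disulfide isomerase (-0.84 in phase 2 and -1.52 in phase 3 against fed), Calr, the lectin chaperone calreticulin (-0.74 and -1.46), and Pdia4 (-1.20 in phase 3 against fed). Manf, a secreted ER stress protein, fell by 0.80 in phase 2. Between the phases the largest called changes of these genes were those of Calr (-0.72), Pdia6 (-0.68) and Pdia4 (-0.58).

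**Figure D4:**
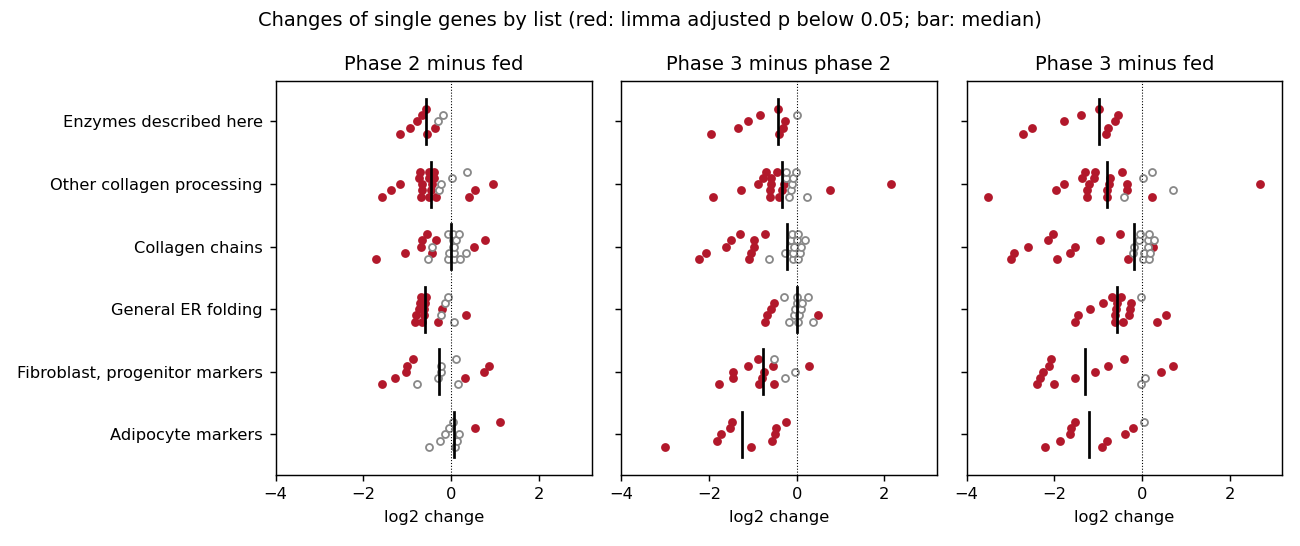
Log2 change of every measured gene of 6 lists in each comparison, with the list's median as a bar and genes past limma's test in red. The collagen folding and processing genes (labelled as enzymes) have a median of -0.57 in phase 2. The 24 collagen chains are centred near 0 there, with 7 called lower, down to -1.71, and 2 called higher. The chains reach down to -3.00 in phase 3 against fed.

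P4ha1, P4ha2, Plod1 and Plod2 are known as hypoxia-inducible genes, and other hypoxia-responsive genes moved both ways. Of 17, 7 rose and 5 fell in phase 2, and 7 rose and 5 fell in phase 3 against fed. Pfkfb3, an activator of glycolysis, rose by 1.42, the mitophagy receptor Bnip3 by 1.25 and adrenomedullin, Adm, by 1.19 in phase 2. In phase 3 against fed the growth inhibitor Ddit4 rose by 2.81 and Ndrg1 by 1.92, while lactate dehydrogenase, Ldha, fell by 2.19.

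TGF-beta signalling is a known inducer of collagen and its enzymes. Of 11 genes, 6 rose and 1 fell in phase 2, 5 rose and 1 fell in phase 3 against fed, and 3 rose and 3 fell between the phases. The medians were 0.30, 0.12 and -0.29. Ccn2, connective tissue growth factor, rose by 1.6 ± 0.238 and the latent TGF-beta binding protein Ltbp1 by 1.07 in phase 2. Ltbp2 (0.57) did not pass when fed rat 1 or 3 or phase 2 rat 1 was left out (0.0511 to 0.0651). The ligand Tgfb2 rose by 1.52 and the receptor Tgfbr1 by 1.37 in phase 3 against fed, and Tgfbr3 by 0.66 from phase 2 to phase 3. The means of Ccn2 were 7.65, 9.25 and 8.61 in fed, phase 2 and phase 3 rats, and those of Ltbp1 9.13, 10.2 and 9.88. Genes of this list that fell are not named here.

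Prolyl and lysyl hydroxylases need ascorbate. Gulo, the last enzyme of ascorbate synthesis, rose from 4.51 ± 0.291 in fed rats to 8.70 ± 0.187 in phase 2 and was at 7.70 ± 0.73 in phase 3 (SD, n = 4). Its fall between the phases (-1.0, adjusted p = 0.0133) lost its call without phase 3 rats 2 and 3 (-0.69, adjusted p = 0.142). Its fed mean, and all group means of Slc23a1 (5.18 to 5.32), were under the olfactory receptor percentile of 5.66. The ascorbate transporter Slc23a2 fell by 0.44 ± 0.0872 in phase 2 (limma adjusted p = 0.00192) and differed from fed by -0.17 in phase 3 (adjusted p = 0.126). Its rise of 0.27 from phase 2 to phase 3 (adjusted p = 0.0328) lost its call in 7 alternatives (0.0554 to 0.0948): a fit of these groups alone, and without phase 2 rat 2, 3 or 4, phase 3 rat 2 or 4, or phase 3 rats 2 and 3. Slc23a1 differed by 0.06 (adjusted p = 0.75) in phase 2 and by 0.14 (adjusted p = 0.312) in phase 3 against fed, a difference that passed with centred arrays (0.29, adjusted p = 0.0381).

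Markers of the cells that make collagen changed in both directions. Of 14 markers of fibroblasts and progenitors, 5 fell and 3 rose in phase 2, 10 fell and 2 rose in phase 3 against fed, and 10 fell and 1 rose between the phases. The mean over this list was 10.27 to 10.42 in fed, 9.87 to 10.07 in phase 2 and 8.98 to 9.49 in phase 3 rats, and over the 9 members 9.59 to 9.68, 8.91 to 9.15 and 8.09 to 8.4. Thy1 changed by -1.59 in phase 2 and -2.38 in phase 3 against fed and Cd34 by -1.28 and -2.02, while Pdgfrb rose by 0.76 in phase 2 (means of 9.49 ± 0.0503, 10.24 ± 0.183 and 10.2 ± 0.0606 for fed, phase 2 and phase 3, SD, n = 4). The progenitor markers Dpp4 and Pi16 fell from phase 2 to phase 3 (-1.1 and -1.77). The part of these cells in the members' changes was not tested.

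Of 10 adipocyte markers, 2 rose in phase 2, 9 fell in phase 3 against fed and 10 fell between the phases, and their mean was 11.84 to 11.93, 11.95 to 12.01 and 10.43 to 11.31. Adiponectin, Adipoq, fell by 1.52 in phase 3 against fed. Of 6 mesothelial markers, 4 were lower in phase 2 than in fed rats, 3 in phase 3 than in fed rats and 2 in phase 3 than in phase 2, with Msln at -0.91, -1.97 and -1.05. Smooth muscle markers rose in 8, 7 and 1 of 8 cases, with Myh11 at 1.71 in phase 2, and endothelial markers in 6, 5 and 1 of 9, with Pecam1 at 0.69. Of 12 macrophage markers, 2 rose and 1 fell, 4 rose and 4 fell, and 3 rose and 2 fell in the same order. In phase 2 Gpnmb lay at 1.43 and Itgam at -0.82, a call lost without phase 2 rat 1 (limma adjusted p = 0.0519). In phase 3 against fed Gpnmb lay at 2.1 and Adgre1 at -1.07. Of 8 skeletal muscle markers only Tnnt3 was called, lower in phase 3 (-1.39 against fed, -1.29 against phase 2). Of 9 hepatocyte markers only Alb was, also lower in phase 3 (-1.59 against fed, adjusted p = 0.0423, a call that ended in 13 of 22 alternatives, and -2.89 against phase 2). For these lists too, any part in the members' changes was not tested.

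The genes whose course over the 12 arrays was nearest to a member's were found by the root-mean-square difference of log2 values after centring each gene on its mean. For Serpinh1 these were Chrdl1, a BMP antagonist (0.161), Gas7 (0.168), Rab7b (0.174), Maged2 (0.177) and Ldha (0.186), which lay at -2.5, -2.33, -2.18, -2.51 and -2.19 in phase 3 against fed. For P4ha1 they were the small GTPase Rab8b (0.09), the nuclear exporter Xpo1 (0.0957), Ptprj and Inpp5d (0.105 each) and Sla (0.108). For Plod2 they were Poglut3 (0.173), Ust (0.175), the latent TGF-beta binding protein Ltbp4 (0.176), Fig4 (0.192) and Pign (0.193), with phase 2 differences from -0.62 to -0.19 and phase 3 differences from fed from -1.48 to -1.15. None of these is another member of the group.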

How the data were processed

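The authors deposited log2 values after RMA, 1 per probe set of the Affymetrix rat gene array. The submitters' processing notes name RMA, GCOS and Affymetrix Expression Console 1.1, and the settings, library version and scan batches are not given in the sources used here. RMA includes quantile normalisation, which can absorb a global shift in RNA. The number of arrays limits the precision. Of 29215 probe sets, 15310 carried 1 platform gene symbol, 323 several and 13582 none, and genes with several probe sets were read from the brightest. One model with a mean for each group was fitted to 14506 genes over the 12 arrays in limma 3.58.1 (R 4.3.3), with Benjamini-Hochberg adjustment over all genes and calls below 0.05. The fitting code was also run on simulated data. There the errors were independent, few genes changed, only in phase 2, and no array shifts were set. The real data differ in this, so that run does not cover their calls. The contrast between steps was added after the data were seen. The members, gene lists, motifs and alternatives were chosen with earlier results of these data known. Genes named by rule were all members and up to 3 called genes of each list per comparison (largest changes for pathways, smallest p for cell types). Gulo, Slc23a1, Slc23a2 and the 5 nearest in course to 3 members were also named by rule. Others were added after their values were seen, among them P3h1, P3h4, Crtap, Ppib, Fkbp10, Bmp1 and Sparc. So were the phase 2 values of Tmem38b, Col1a1, Col1a2 and Col3a1. The nearest to Pcolce2 and its pair with Pcolce were not analysed here. The rats of a group are separate animals, numbered 1 to 4 in the titles. Promoters were taken from RefSeq by gene number, and 9 members matched. The alternatives changed the normalisation, variance model, probe sets, filter, samples and pairing, 1 at a time. Pair tests used Python 3.11.15 with numpy 2.4.6 and pandas 2.3.3.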

Additional observations from a re-analysis of the deposited data

Results flagged for a closer look

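Of 27 groups of 4 rats, 9 members in each of 3 groups, 2 held a rat far from the others, where chance sets apart about 1 group in 20. Phase 2 rat 2 was low for Plod1, at 8.88, and fed rat 3 was high for Pcolce, at 10.50. Without phase 2 rat 2 or without fed rat 3, the calls of these genes in the 3 comparisons held.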

How the results depend on the processing

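Across the alternatives, 7 of 9 members were called in phase 2 against fed (6 to 7) and 9 of 9 in phase 3 against fed (8 to 9). The lower counts come from the filter on dim genes, which leaves P4ha3 untested. In phase 3 against phase 2 the count was 8 (6 to 8, and 5 to 8 when 1 rat was left out). The count of members whose steps differed was 2, and 1 with the replicate block, 1 without both phase 3 rats 2 and 3, and 1 to 2 when 1 rat was left out, always through P4ha2. No pairing of rats by replicate number was detected: deviations of same-numbered rats over all genes correlated between -0.155 and 0.188, and the block left 7, 9 and 8 members called. A check over all genes could miss a shared batch that touches only some of them. The pair tests gave 0 passes in each of 13 alternatives, which says nothing about stability, since with 18 tests and a smallest exact permutation p of 0.0286 the design could hardly give any. Small differences changed sign. When 1 rat was left out, P4ha2 in phase 3 against phase 2 ranged from -0.03 to 0.06, Slc23a1 there from -0.0045 to 0.17, the step difference of P4ha3 from -0.38 to 0.37 and that of Plod3 from -0.12 to 0.05, P4ha2 relative to P4ha1 in phase 3 against fed from -0.10 to 0.18, and Plod3 relative to Plod2 in phase 2 from -0.22 to 0.05. Without both phase 3 rats 2 and 3, P4ha2 lay at -0.04 in phase 3 against phase 2 and Slc23a1 at -0.07 there and -0.0068 against fed. With centred arrays the step difference of Plod3 was 0.01. The cause was not tested. Centring raised the genes called higher from 3066 to 6115 in phase 3 against fed (46.5% to 69.6% of calls) and from 1853 to 3115 in phase 3 against phase 2 (45.8% to 64.9%), and moved the share from 38.4% to 53.0% in phase 2. With every one of 29215 probe sets tested, not centred, 5222 were called higher in phase 3 against fed. The count of genes whose steps differed fell from 997 higher and 829 lower to 594 and 515 without phase 2 rat 1, and to 609 higher without phase 2 rat 2.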
